A study of Mus with 6 samples.

Results

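Immunoglobulin genes were followed in 6 mouse liver libraries, gene by gene and library by library. The genes were taken from a table of 48882 genes by name and by level. A row entered when it was a heavy, kappa or lambda V segment (Ighv, Igkv or Iglv), a constant region gene of the 3 loci, or Jchain, and when its mean over the 6 libraries was at least 0.5 TPM, a length-corrected share of all transcripts. By name 360 rows matched, of which 198 had no value in any library and 108 had values that stayed under the minimum. The remaining 54 genes were 6 heavy chain constant genes, Igkc, 3 lambda constant genes, Jchain, 17 Ighv segments, 24 Igkv segments and 2 Iglv segments. They were thus selected on their mean level over all libraries, and the levels that follow are descriptions. The genes nearest the minimum were Igkv3-4 inside it, with a mean of 0.502 TPM, and Ighv1-76 outside it, with 0.499 TPM.

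The libraries were made from liver of FABP4-/- mice (3 libraries) and of their wild type littermates (3 libraries). Both groups had been fed a liquid diet containing ethanol (Lieber-Decarli) for 8 weeks and were then given 1 ethanol binge, so no liver without ethanol entered these comparisons. The labels give neither strain, age nor sex, and they name no cell type to which the deletion of Fabp4, a fatty acid-binding protein gene, was limited. They do not state that each replicate number is a separate mouse, so the p-values below speak only of the spread from library to library. Triplets of values are given in the order of replicates 1, 2 and 3.

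An antibody is built from heavy chains paired with kappa or lambda light chains. Each B cell joins V, D and J segments into its own variable region in front of a constant region, and a naive B cell makes IgM (Ighm) and IgD (Ighd) from 1 transcript by alternative splicing. Class switching replaces Ighm by an IgG or IgA constant gene (Ighg, Igha), and plasma cells secrete large amounts of antibody, with Jchain linking the units of polymeric IgM and IgA. Liver holds B cells among its resident leukocytes, and its cells meet circulating antibody through Fc receptors and the polymeric immunoglobulin receptor.

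Fabp4 itself had 14.7, 8.15 and 19.96 TPM in wild type libraries. In the 3 knockout libraries it was listed at 0. Transthyretin (Ttr), a hepatocyte product, lay between 4745 and 8561 TPM in the 6 libraries. None of the 10 hepatocyte markers listed passed an adjusted p of 0.05 in limma, where 0.00706% of all genes tested did. That count cannot show that hepatocyte content was alike. Their differences in log2(TPM + 1), knockout minus wild type, ran from -0.75 to 0.15. A value was present for 20664 to 21438 genes per library. Multiplied by gene length, low values fell near whole multiples of a unit that differed little between libraries (89.5 to 98.4 TPM times bases). For genes of up to 5 units, 91.7% to 99.98% lay within 0.25 of a whole multiple. Read as about 1 read per unit, the libraries summed to 20400000 to 22900000 units, an approximate figure because the deposited values appear quantile normalized.

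Immunoglobulin transcripts were most abundant in knockout replicate 1. The 54 genes summed to 73.8, 101 and 66.7 TPM in wild type, against 414, 84.2 and 115 TPM in knockout. The groups overlapped, since knockout replicate 2 lay below wild type replicate 2. The ratio of the group means was 2.53 with knockout replicate 1 and 1.23 without it. In bulk liver, a change in the number of B-lineage cells and a change in immunoglobulin RNA per cell cannot be told apart.

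**Figure D1:**
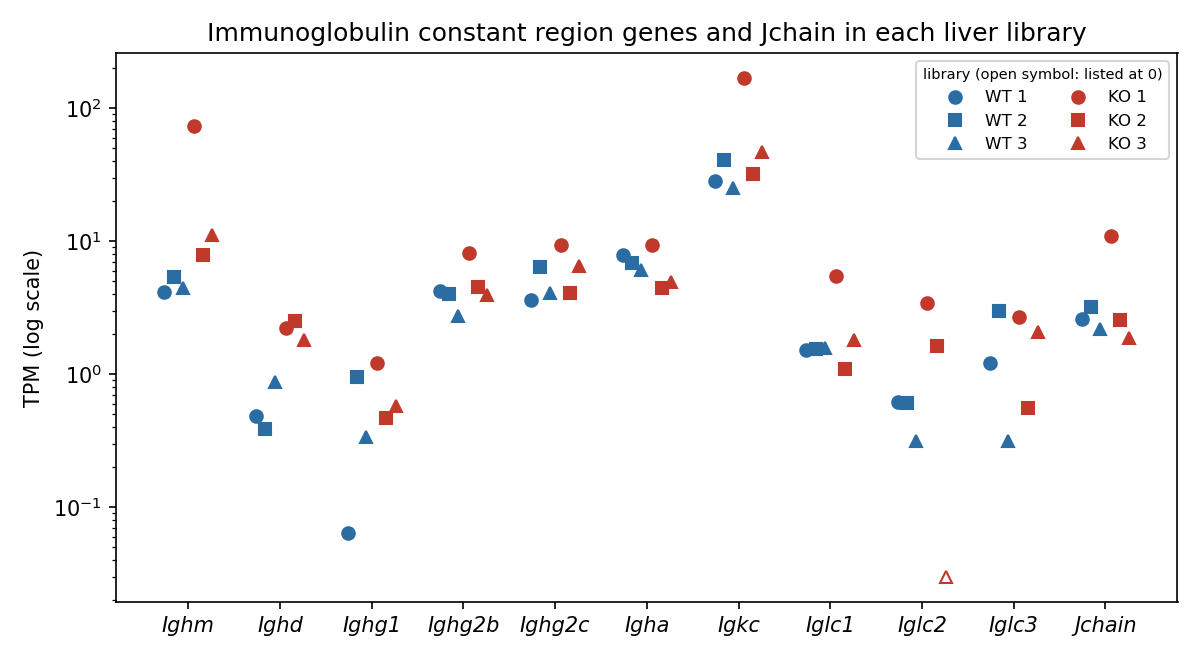
TPM of the heavy chain constant genes, Igkc, the lambda constant genes and Jchain in each library, on a log axis, 1 point per library, with an open symbol at the foot for a value listed at 0. Ighm ranged from 4.17 to 5.37 TPM in wild type and from 7.85 to 74.2 TPM in knockout libraries, whereas Igha overlapped.

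Among the 6 heavy chain constant genes that met the minimum, the groups did not overlap for Ighm and Ighd, the genes of unswitched B cells, and overlapped for the other 4. Of all genes tested, 8.94% lay wholly above wild type in knockout. Ighg3, a switched gene that missed the minimum, lay wholly above as well. Ighm, the constant region of IgM (chr12:113418826-113422730, mm10), had 4.17, 5.37 and 4.48 TPM in wild type. It had 74.2, 7.85 and 11.1 TPM in knockout. Every knockout value lay above every wild type value, and knockout replicate 1 stood far above the other two. The group means were 4.67 ± 0.619 and 31.1 ± 37.4 TPM (SD, n = 3 each), a ratio of 6.64 that became 2.03 without knockout replicate 1. The knockout minus wild type difference in log2(TPM + 1) was 1.83 (SE 0.71), with an adjusted p of 0.581 in limma, and 0.87 (SE 0.19, adjusted p 0.460) without that library.

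Ighd, the constant region of IgD, which lies beside Ighm (chr12:113407535-113416324), did not single out knockout replicate 1. Its values were 0.484, 0.387 and 0.879 TPM in wild type and 2.23, 2.54 and 1.80 TPM in knockout. The 3 knockout values were close together and above all wild type values, with means of 0.583 ± 0.261 and 2.19 ± 0.369 TPM (SD, n = 3). The ratio was 3.75, and 3.72 without knockout replicate 1. The log2 difference of 1.02 (SE 0.18) had the smallest adjusted p of the 54 genes, 0.499 in limma, and did not pass the threshold of 0.05. An exact permutation test of Ighd or of Ighm gave p = 0.1, the smallest that 3 libraries against 3 allow. Ighd rested on few reads, about 4 to 9 units in each wild type library and 20 to 29 in each knockout library.

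The groups overlapped for each of the 4 switched constant genes that met the minimum. Igha, the constant region of IgA, had 7.86, 6.87 and 6.05 TPM in wild type and 9.35, 4.43 and 4.98 TPM in knockout. Its log2 difference was -0.18 (SE 0.25, adjusted p 0.890 in limma). Ighg2b had 4.26, 3.99 and 2.76 TPM against 8.16, 4.56 and 3.92 TPM, a difference of 0.45 (SE 0.25). Ighg2c had 3.61, 6.41 and 4.10 TPM against 9.38, 4.11 and 6.48 TPM, a difference of 0.40 (SE 0.29). For these 3 genes the highest value was in knockout replicate 1, while the remaining knockout values lay within or below the wild type range or barely above it. Ighg1 was low throughout, between 0.0646 and 1.21 TPM, with a difference of 0.30 (SE 0.27). Ighg3 missed the minimum with a mean of 0.283 TPM; it had 0.0810, 0 and 0.0811 TPM in wild type and 0.596, 0.438 and 0.503 TPM in knockout, with no overlap but at very low level. Ighe, the constant gene of IgE, was listed at 0 in all 6 libraries.

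**Figure D2:**
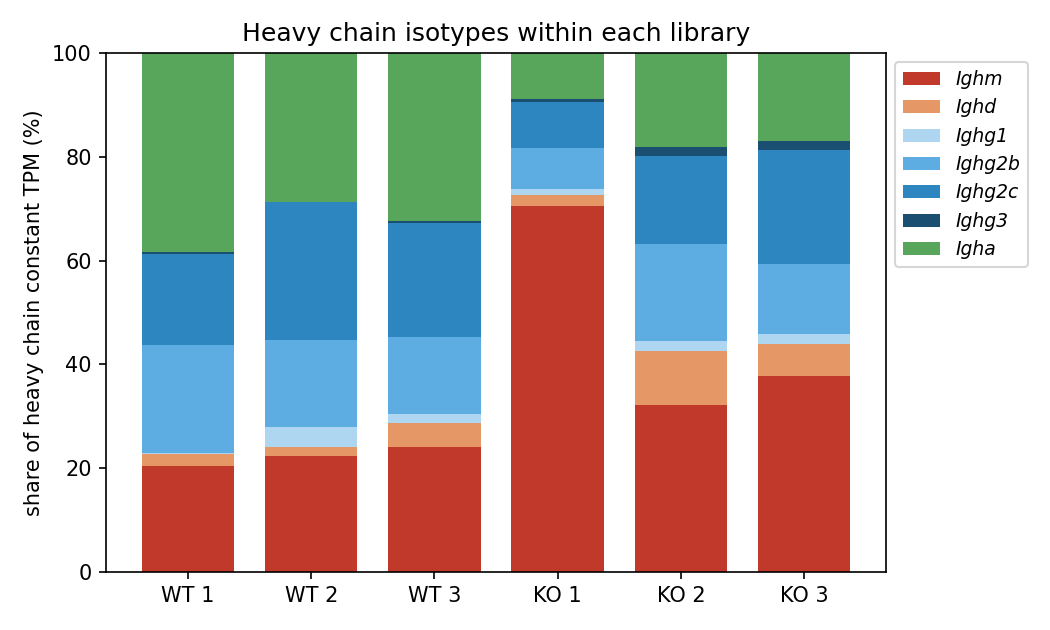
Share of each constant gene in the summed heavy chain constant TPM (percent) for each of the 6 libraries, as stacked bars. The Ighm share was 20.3% to 24.0% in wild type and 32.2% to 70.6% in knockout libraries, and the Igha share was lower in every knockout library than in any wild type library.

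Within the heavy chain transcripts, the shares of Ighm, Igha and the very low Ighg3 did not overlap between the groups. Those of Ighd, Ighg1, Ighg2b and Ighg2c overlapped. The shares are parts of 1 total, so a larger share of Ighm lowers the others. A common factor per library cannot move such shares, but quantile normalization, which the deposited values appear to carry, can. All 7 constant genes with a value, Ighg3 included, entered the total. Ighm made up 20.3%, 22.4% and 24.0% of heavy chain constant TPM in wild type, and 70.6%, 32.2% and 37.8% in knockout. The mean share was 24.6 percentage points higher in knockout, and 12.8 points higher without knockout replicate 1. Igha made up 38.3%, 28.7% and 32.4% in wild type and 8.90%, 18.1% and 17.0% in knockout. For the shares of both genes the groups did not overlap, although Igha TPM overlapped. By TPM, 8.94% of all genes tested lay wholly above wild type in knockout and 4.38% wholly below. The ratio of Ighm to Igha was below 1 in each wild type library (0.531, 0.781 and 0.741) and above 1 in each knockout library (7.93, 1.77 and 2.23). The IgG genes together took 39.0%, 47.3% and 38.9% in wild type and 18.4%, 39.3% and 39.1% in knockout, so knockout replicate 1 was the library below the rest. The Ighd share was highest in knockout replicates 2 and 3, at 10.4% and 6.13%, and 2.12% in knockout replicate 1, inside the wild type range of 1.61% to 4.71%. Knockout replicate 1 therefore had 33.3 times as much Ighm as Ighd, while the other knockout libraries had 3.09 and 6.17 times as much. In wild type it was 8.63, 13.9 and 5.09 times as much, so the groups overlapped. These shares are given as descriptions, and no test was made of them.

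Igkc ranked the 6 libraries in the same order as the sum over the 54 genes did. It is itself a large part of that sum, so the shared order is partly built in. Igkc, the single kappa constant gene (chr6:70726435-70726754), had 28.3, 40.5 and 25.3 TPM in wild type and 169, 32.2 and 46.5 TPM in knockout. It was the most abundant of the 54 genes in every library, and the groups overlapped. Its log2 difference was 1.02 (SE 0.55, adjusted p 0.698 in limma), and 0.32 without knockout replicate 1. Kappa took 88.7% to 93.6% of light chain constant TPM across all libraries. Iglc1 had 1.52, 1.55 and 1.57 TPM in wild type and 5.46, 1.10 and 1.81 TPM in knockout, a difference of 0.40 (SE 0.37). Iglc2 and Iglc3, which are near-identical copies whose reads may be split arbitrarily, showed differences of 0.59 (SE 0.48) and 0.20 (SE 0.45).

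The amount of Igkc per heavy chain overlapped between the groups. Its ratio to summed heavy chain constant TPM was 1.38, 1.69 and 1.35 in wild type and 1.61, 1.32 and 1.58 in knockout. Jchain, the joining chain (chr5:88519809-88527897), had 2.61, 3.23 and 2.18 TPM in wild type and 11.04, 2.56 and 1.88 TPM in knockout. Its difference of 0.45 (SE 0.49, adjusted p 0.856 in limma) rested on knockout replicate 1 and was -0.19 without it. Per heavy chain constant TPM, Jchain was 0.127, 0.135 and 0.117 in wild type and 0.105, 0.105 and 0.0641 in knockout, below every wild type value. Per summed TPM of Ighm and Igha, the chains it links, the groups overlapped, with 0.217, 0.264 and 0.207 in wild type and 0.132, 0.208 and 0.117 in knockout.

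V segments carried the same imbalance between libraries. The 43 segments that met the minimum summed to 19.1, 28.4 and 18.5 TPM in wild type and 118, 22.2 and 33.4 TPM in knockout. Single segments rested on few reads. Of the 258 values (43 segments in 6 libraries), 69 were 0, 107 stood at 1 to 3 units and 63 at 4 to 9. Of the 19 values of 10 units or more, 17 were in knockout replicate 1. The minimum favours high values in that library, because only 21 of the 43 segments met it over the other 5 libraries.

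**Figure D3:**
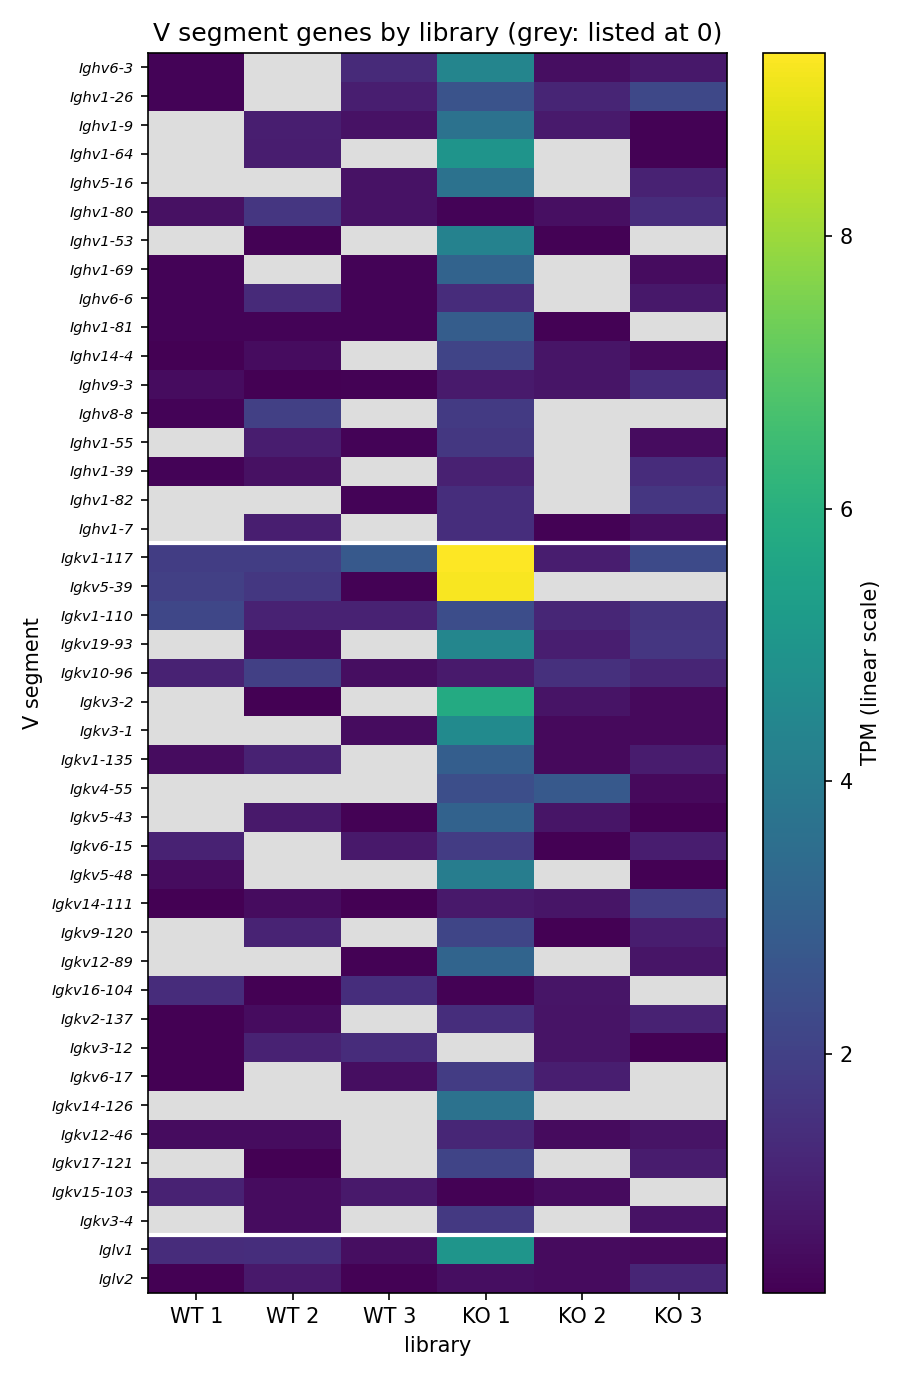
TPM of the 43 V segments in each library, as a colour map on a linear scale with the Ighv, Igkv and Iglv segments in blocks from top to bottom, each ordered by mean, and grey where the value is 0. Knockout replicate 1 is the highest library for 31 of the 43 segments, against 22.2% of all genes tested. Only 21 of the 43 met the minimum over the other 5 libraries, which favours this count. Igkv1-117 and Igkv5-39 are brightest, at 9.35 and 9.27 TPM in knockout replicate 1.

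The segment with the highest mean was Igkv1-117 (chr6:68121091-68121825), which had 1.91, 1.91 and 2.78 TPM in wild type and 9.35, 0.976 and 2.29 TPM in knockout. Igkv5-39 had 1.97, 1.72 and 0.287 TPM in wild type, 9.27 TPM in knockout replicate 1 and 0 in the other 2 knockout libraries. Its groups overlapped and its difference was -0.01 (SE 0.87). Igkv1-110 was even, with values from 1.11 to 2.19 TPM in wild type and from 1.23 to 2.41 TPM in knockout. Igkv10-96 ranged from 0.582 to 1.97 TPM in wild type and from 0.906 to 1.51 TPM in knockout. Iglv1, the leading lambda segment, had 1.39, 1.43 and 0.570 TPM in wild type and 4.99, 0.502 and 0.492 TPM in knockout; it closely resembles Iglv2, so reads may be shared between them. Ighv6-3 and Ighv1-9 had 4.41 and 3.68 TPM in knockout replicate 1 and at most 1.34 and 1.02 TPM in any other library.

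Of the 43 segments, 7 had all knockout values above all wild type values and 1 had them below, where 8.94% and 4.38% of all genes tested did so. These counts are no support for a difference, since the minimum favours segments that are high in knockout. Only 21 of the 43 met it over the 5 libraries other than knockout replicate 1. Igkv3-2, 1 of the 7, did not, with a mean of 0.296 TPM there. Igkv4-55 was listed at 0 in each wild type library and had 2.44, 2.78 and 0.491 TPM in knockout. Igkv19-93 had 0, 0.555 and 0 TPM in wild type and 4.43, 1.01 and 1.68 TPM in knockout, a log2 difference of 1.41 (SE 0.37, adjusted p 0.522 in limma). Ighv1-26 had 0.334, 0 and 1.02 TPM in wild type and 2.57, 1.19 and 2.23 TPM in knockout, a difference of 1.08 (SE 0.30). The log2 differences of the other segments wholly above were 1.26 (SE 0.53) for Igkv3-2, 0.74 (SE 0.22) for Igkv2-137, 0.63 (SE 0.22) for Igkv14-111 and 0.55 (SE 0.19) for Ighv9-3. Igkv15-103 lay the other way, with 1.12, 0.555 and 0.856 TPM in wild type and 0.291, 0.511 and 0 TPM in knockout.

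Family shares overlapped between the groups for all 14 Ighv and all 3 Iglv families with a value and for 12 of the 16 Igkv families. Of the other 4, Igkv14, Igkv19 and Igkv17 took larger shares of Igkv TPM in every knockout library and Igkv13 a smaller one. By TPM, 8.94% of all genes tested lay wholly above wild type in knockout and 4.38% wholly below, so the 4 are given as descriptions only. Igkv14 took 1.30%, 2.14% and 3.32% in wild type and 5.16%, 3.59% and 6.61% in knockout. Igkv19, whose 1 segment is Igkv19-93, took 0%, 2.17% and 0% in wild type and 5.01%, 4.86% and 5.95% in knockout. Igkv17 took 0%, 1.06% and 0% in wild type and 3.06%, 3.68% and 6.81% in knockout. Igkv13 took 2.66%, 1.08% and 10.2% in wild type and 1.02%, 0% and 0.903% in knockout. These 4 families are small and rest on few reads, and no test was made of their shares. Among the larger families, Ighv1 led its locus with 52.7% to 58.7% of Ighv TPM in wild type and 57.5% to 66.6% in knockout libraries. Igkv1 took 17.2% to 24.6% of Igkv TPM in wild type and 13.0% to 17.3% in knockout libraries. Igkv3 took 1.28%, 8.54% and 18.0% in wild type and 15.7%, 13.0% and 10.2% in knockout. Igkv4 took 8.49% to 15.4% in wild type and 8.42% to 15.9% in knockout. The leading segment held 7.73% to 16.4% of Igkv TPM and 7.41% to 15.3% of Ighv TPM per library, and no segment led its locus in all 6. The inverse Simpson index, an effective number of segments, was 13.6 to 24.9 for Igkv in wild type and 20.1 to 26.5 in knockout libraries, and 15.4 to 24.0 against 17.7 to 28.0 for Ighv. Segments with any value numbered 20 to 35 (Ighv) and 22 to 38 (Igkv) in wild type libraries. Knockout replicates 2 and 3 had 22 and 30 (Ighv) and 31 and 39 (Igkv). Knockout replicate 1 had 49 and 51, of which 14 and 7 were seen in no other library. Its 43 segments that met the minimum summed to about 410 units, against 63 to 119 in the other libraries. How far the number of reads sets these counts was not tested. Igkv segments within 1000 kb of Igkc took 49.1% of Igkv TPM in knockout replicate 1, against 25.9% to 44.4% in the other libraries.

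None of the 54 genes passed an adjusted p of 0.05 in limma, where 0.00706% of all genes tested did; adjusted p-values ran from 0.499 to 0.999. At an unadjusted p under 0.05, 9 were higher and 1 was lower in knockout, against 5.12% and 2.91% of all genes tested. Leaving out knockout replicate 2 gave 19 in place of the 9, and leaving out wild type replicate 3 gave 5. The shares of all genes in those settings were not taken, so these counts cannot be set against them. The 54 genes had a median log2 difference of 0.54 and 47 of them lay above 0, where all 14155 genes tested had a median of 0.04 and 57.4% lay above 0. These counts are no support for a difference, since 23 of the 54 met the minimum only through knockout replicate 1, and 31 still met it over the other 5 libraries. The members also share cells and reads and are not replicates of one another.

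Knockout replicate 1 was the highest of the 6 libraries for 40 of the 54 genes, against 22.2% of all genes tested. In 19 of the 53 genes with a value elsewhere it exceeded the next library by more than 3 times. The share of all genes tested that did so was not taken. The minimum itself favours both counts, because only 31 of the 54 met it over the other 5 libraries. They are therefore descriptions. Without knockout replicate 1, the difference of group means for the 54 genes had a median of 0.15. Of these differences 35 were above, 18 below and 1 at 0, and 13 genes changed sign. The limma fit without that library tested the 31 genes that still met the minimum, of which 18 were higher, against 54.1% of all genes. At an unadjusted p under 0.05, 8 of the 31 were higher and 2 lower, against 4.9% and 3.86% of all genes. Both remaining knockout values lay above every wild type value for 9 of the 54, among them Ighm and Ighd, where 15.5% of all genes tested did so.

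**Figure D4:**
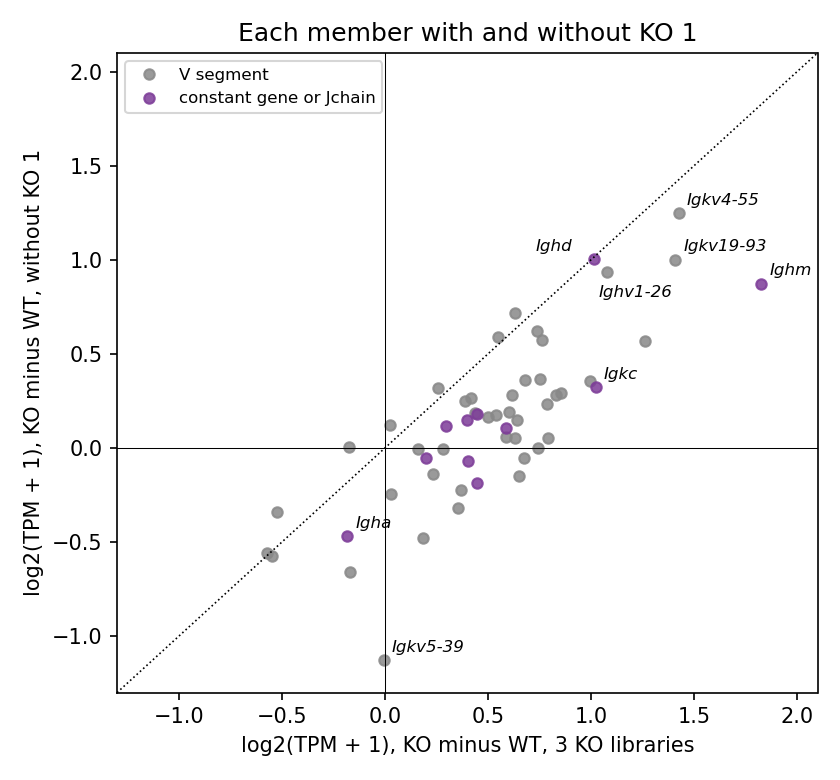
Log2(TPM + 1) difference, knockout minus wild type, of each of the 54 genes with all 6 libraries (x axis) and without knockout replicate 1 (y axis), with a dotted line of equality; grey points are V segments and purple points constant genes or Jchain. Most genes lie below the line, as Ighm does at 1.83 and 0.87, while Ighd lies beside it.

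Markers of the cells that carry immunoglobulin were read in the same libraries. Of 21 B cell markers 10 met the minimum; all 10 were higher in knockout, where 57.4% of all genes tested were. At an unadjusted p under 0.05 there were 4 of the 10, against 5.12% of all genes, and none passed the adjusted threshold in limma. Their median log2 difference was 0.43, and 0.44 without knockout replicate 1. The 21 markers summed to 20.2, 15.9 and 16.1 TPM in wild type and 27.6, 25.4 and 28.8 TPM in knockout, with no overlap. Cd79b, a signalling chain of the B cell receptor, had 1.34, 0.397 and 0.647 TPM in wild type and 2.44, 2.08 and 2.73 TPM in knockout, a difference of 0.96 (SE 0.21). Cd37, a tetraspanin of B cells, had 0.836 ± 0.292 and 2.22 ± 0.361 TPM (SD, n = 3), a difference of 0.82 (SE 0.18). Ms4a1, which encodes CD20, differed by 0.69 (SE 0.19) and Cd22 by 0.44 (SE 0.19). These 4 genes did not single out knockout replicate 1 as Ighm did. Cd79a, the partner chain of Cd79b, had 0.589, 1.21 and 0.822 TPM in wild type and 1.60, 0.794 and 1.23 TPM in knockout, and its groups overlapped. Relative to the wild type mean, Cd79b reached 3.07, 2.61 and 3.43 times and Ighd 3.82, 4.35 and 3.09 times in knockout, whereas Ighm reached 15.9, 1.68 and 2.38 times and Igkc 5.39, 1.03 and 1.48 times. The part of B cell number in these values was not tested.

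**Figure D5:**
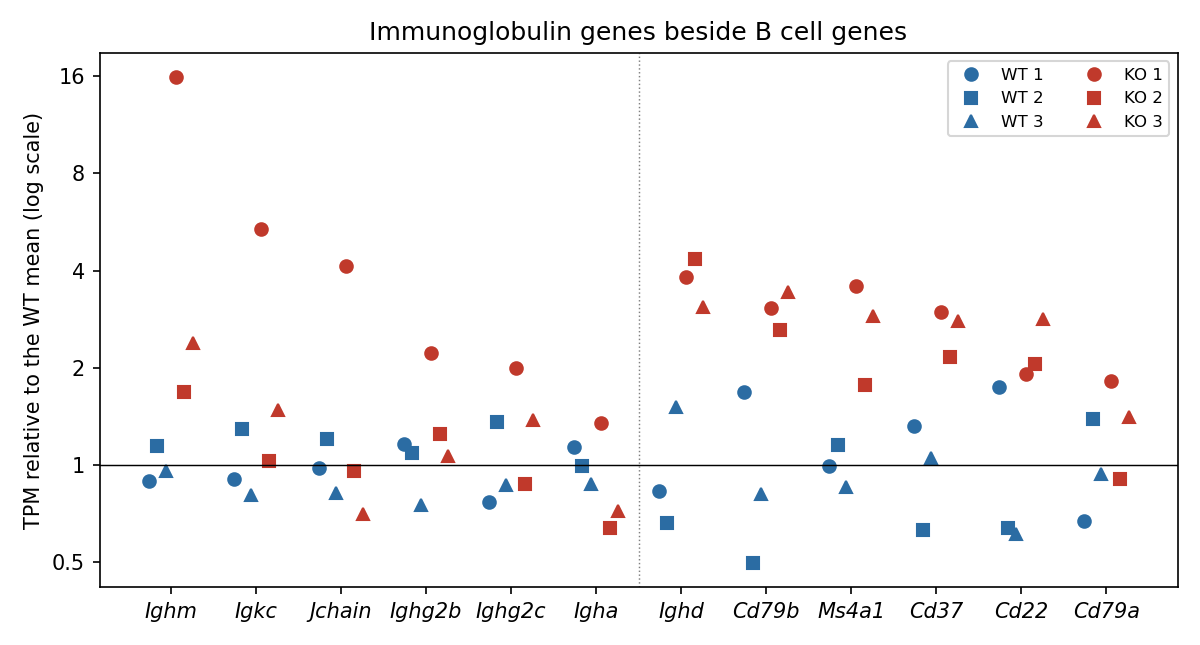
TPM in each library relative to the wild type mean, on a log axis, for immunoglobulin constant genes and Jchain (left of the dotted line) and for Ighd and B cell genes (right of it). Ighm reached 15.9 times in knockout replicate 1 and 1.68 and 2.38 times in the others, while Ighd, Cd79b, Ms4a1, Cd37 and Cd22 lay between 1.77 and 4.35 times in all 3; Cd79a lay lower and overlapped wild type.

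Plasma cell genes were sparse. Only Derl3 and Cd38 of the 9 listed met the minimum. Derl3, an endoplasmic reticulum protein disposal gene, had 5.59, 2.38 and 4.12 TPM in wild type and 38.7, 2.52 and 15.6 TPM in knockout. Hspa5, an endoplasmic reticulum chaperone that hepatocytes also express at high level, had its 2 highest values in the same libraries, 2168 and 2004 TPM in knockout replicates 1 and 3, against 707 to 1307 TPM in the other 4. The other 7 plasma cell genes summed to 1.93, 1.23 and 0.950 TPM in wild type and 1.94, 1.33 and 1.86 TPM in knockout. Among them Mzb1 had 0.808 TPM in knockout replicate 1 and 0.0645 to 0.522 TPM elsewhere. Tnfrsf17, the plasma cell survival receptor BCMA, was listed at 0 in 4 libraries and at no more than 0.0666 TPM in the remaining 2.

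Genes around the B cell gave few differences. Of 17 T cell markers 11 met the minimum, 8 of them higher in knockout and none at an unadjusted p under 0.05, and the 17 summed to 7.91 to 17.3 TPM in wild type and 13.1 to 17.4 TPM in knockout. Of the 7 precursor B cell genes listed, Rag1, Rag2, Vpreb2 and Igll1 were at 0 in all 6 libraries. Vpreb1 had 1.02, 0 and 0.128 TPM in wild type and 0.125, 0.118 and 0.119 TPM in knockout. Il7r lay between 0.262 and 1.06 TPM in the 6 libraries. Dntt, the enzyme that adds bases at V(D)J joints in precursor lymphocytes, nevertheless had 6.95, 9.72 and 5.21 TPM in wild type and 10.05, 2.53 and 3.50 TPM in knockout. In B cell receptor signalling all 12 genes that met the minimum were higher in knockout, against 57.4% of all genes tested. At an unadjusted p under 0.05 there was 1 of the 12, near the 5.12% of all genes. It was Rasgrp3, with 1.79 ± 0.461 and 3.49 ± 0.131 TPM (SD, n = 3) and a difference of 0.70 (SE 0.16). Fcgr2b, the inhibitory Fc receptor for IgG, had 54.8 ± 2.64 and 80.2 ± 7.13 TPM (SD, n = 3), a difference of 0.54 (SE 0.12). Pigr, the receptor that transports polymeric IgA into bile, had 495 ± 88.8 and 581 ± 127 TPM. Cxcl13, a chemokine that attracts B cells, had 1.59, 3.54 and 3.10 TPM in wild type and 11.4, 5.32 and 11.6 TPM in knockout, a difference of 1.45 (SE 0.32). None of these genes passed the adjusted threshold in limma.

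The remaining lists are given by the number of genes that met the minimum, and their shares of higher genes stand beside the same 57.4% of all genes tested. Of the immunoglobulin receptors 9 of 12 did, 8 of them higher in knockout. Of the B cell and plasma cell homing genes 8 of 15 did, 4 of them higher, and of the secretory genes shared by plasma cells and hepatocytes 10 of 10 did, 7 of them higher. Natural killer cell markers had 3 of 8 (2 higher), plasmacytoid dendritic cell markers 4 of 6 (3 higher), and class switching and germinal centre genes 3 of 8 (2 higher). Precursor genes had 2 of 7 (1 higher). Of the B cell survival genes Tnfsf13, the ligand APRIL, was the 1 of 5 that met the minimum, with a difference of 0.13. Of the octamer-binding factors and their coactivator, which act on immunoglobulin promoters, 2 of 3 met it. Pou2f1 had 2.96, 1.94 and 1.79 TPM in wild type and 1.15, 1.68 and 1.16 TPM in knockout, a difference of -0.46 that did not pass the adjusted threshold in limma. Over these lists 0 genes passed it.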

How the data were processed

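RNA from flash-frozen mouse liver (6 libraries, 3 wild type and 3 FABP4-/-) was sequenced on a HiSeq system, according to the labels. FastQC, Trimmomatic and the build mm10 are named per the submitters' processing notes; aligner, quantifier, annotation and strandedness were not given in the sources used here. Per the file headers the deposited columns hold TPM. By their range the deposited values are log2 values, and they look quantile normalized across libraries; no header or label records either step. They were back-transformed (2 to the power of the value, blanks as 0), because the tests had been designed for TPM. Under such a normalization a shift of all genes cannot be seen.

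A linear model with the group as its 1 term was fitted with limma 3.58.1 (R 4.3.3, moderated with a mean trend, two-sided) to log2(TPM + 1). The pseudocount of 1 makes changes of low genes look smaller. The fit took in the 14155 genes with a mean of at least 0.5 TPM. Benjamini-Hochberg adjustment ran over all of them (threshold 0.05). A positive difference is higher in knockout. Sums, shares and indices carry no test. The tests were tested on simulated data. V segments and paralogs share reads, and their values are uncertain. Coordinates are those of the deposited table. Named genes were Fabp4, all constant genes and Jchain, the 10 V segments of highest mean, up to 10 V segments without overlap between groups, and in each list up to 4 genes with the smallest p; others, such as Ttr, Mzb1, Hspa5, Pigr, Ighg3 and Ighe, were added once their values had been seen. The members and the 14 lists of 137 genes were chosen with earlier results of these data known. Alternatives were another pseudocount, filter and scaling, a replicate block, and each library left out.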

Additional observations from a re-analysis of the deposited data

How the results depend on the processing

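In every setting run, 0 of the genes tested passed the adjusted threshold in limma. All 54 were tested with a pseudocount of 0.1 or no filter, 53 with median ratio scaling and 23 at a minimum of 1 TPM. With 1 library left out 50 to 54 were tested, except 31 without knockout replicate 1. With knockout replicate 1 and wild type replicate 2 left out together, chosen after seeing the data, 29 were tested. The smallest adjusted p of a gene was 0.0635, for Igkv4-55 without knockout replicate 3. The labels do not pair equal replicate numbers, and same-numbered libraries deviated apart (correlations of -0.26, -0.27 and -0.05); in the fit with a replicate block, 0 genes passed and the smallest adjusted p was 0.822. Leaving out 1 library at a time, genes higher at an unadjusted p under 0.05 numbered 5 (without wild type replicate 3) to 19 (without knockout replicate 2), against 9 with all libraries. The share of all genes was taken only with all libraries and without knockout replicate 1, so this range has no share beside it. The log2 ratio of summed TPM, 1.34 with all libraries, ranged from 0.30 (without knockout replicate 1) to 1.71. The difference in Ighm share ranged from 12.8 to 32.0 percentage points, that in kappa share from 1.497 to 3.18 points, and that in the inverse Simpson index of the Igkv members from 2.71 to 4.83, against 3.66 with all. Over members of at least 1 TPM that index differed by 1.62; the set then holds fewer segments. Single V segments rest on a few reads per library, so their order within a library is not resolved at this depth. The octamer motif comparison planned for the promoters was not run.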
